A study of Arabidopsis thaliana with 16 samples.

Results

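A set of 55 named genes was moderately lower in each gun1 mutant sample of Arabidopsis thaliana than in the same-numbered wild type (WT) sample. The series measured total RNA on expression arrays of 3439 probes in 8 samples labelled gun1 and 8 labelled WT, each numbered 1 to 8. The gun1 samples carry the gun1-1 allele, a mutation of plastid signaling by the submitters' description, and both genotypes are in the ecotype Columbia 0, so they share the background and differ in this allele. Tissue, age and growth conditions are not stated in the labels, nor is it said that the numbers stand for separate plants, so the spread between samples may be technical.

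GUN1 is a pentatricopeptide repeat protein of the plastid. It belongs to the pathway by which plastids report their state to the nucleus, where most plastid proteins are encoded, and gun mutants were found because they keep nuclear photosynthesis genes active when plastid development is blocked. None of the plastid signaling genes searched for, GUN1 itself included, had a probe listing that gene alone, so the mutated gene could not serve as a check of the labels here. The seed, root, flower, and senescence and stress genes that were searched for had no such probe either, so the sampled material could not be checked against them.

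The members were picked from the measured difference itself. After quantile normalization, with a floor of 0.0313 set under low values, the log2 difference gun1 minus WT was taken within each number. A member had to have a probe listing exactly 1 gene, a negative difference in all 8 numbers and a mean difference between -1.67 and -0.58. Of 692 probes listing 1 gene, 87 had a negative difference in all 8 numbers, as did 12.3% of all probes tested, and 59 of these lay in the range. Of these 59, 4 were left out by name, NdhS, IYO, AT3G13120 and AT1G64510, which leaves 55, all matched to RefSeq genes. Every difference of a member given here is therefore a description of what chose it, and no test of it is offered.

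Below the range lay 12 of the 87 genes and above it 16. The members nearest the lower end were AT3G25840 at -1.65, AT5G56070 at -1.53 and AT1G06730 at -1.52, and just outside were AT2G39000 at -1.672, AT2G11270 at -1.76 and AT3G53580 at -1.77. At the upper end AT4G20690 and AT4G22190 stood at -0.59 and AT3G58610 at -0.62, and just outside were AT4G30680 at -0.577, AT1G12100 at -0.57 and AT2G39360 at -0.56. The edges cut through a continuous run of values.

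The median difference of the members was -0.99 on the log2 scale, a gun1 level of 0.504 times that in WT, and 27 of the 55 had a difference of -1 or lower. Over all 3419 probes tested the median difference was -0.05. A linear model fitted with limma over all of these probes called 52 of the 55 members lower in gun1 at a Benjamini-Hochberg adjusted p under 0.05, beside 15.2% of all probes called lower and 31.8% called in either direction. The rule used this contrast, so nothing is read from that count. The 3 members not called were AT1G13370, AT1G72890 and AT1G78790. With the replicate number as a block 54 were called, beside 18.8% of all probes called lower, AT1G72890 being the one not called. Averaging consecutive numbers into 4 samples a genotype left 31 of the 55 called, beside 7.58% of all probes called lower. In RNA from whole samples, fewer cells that express a gene and less RNA per cell cannot be told apart.

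**Figure D1:**
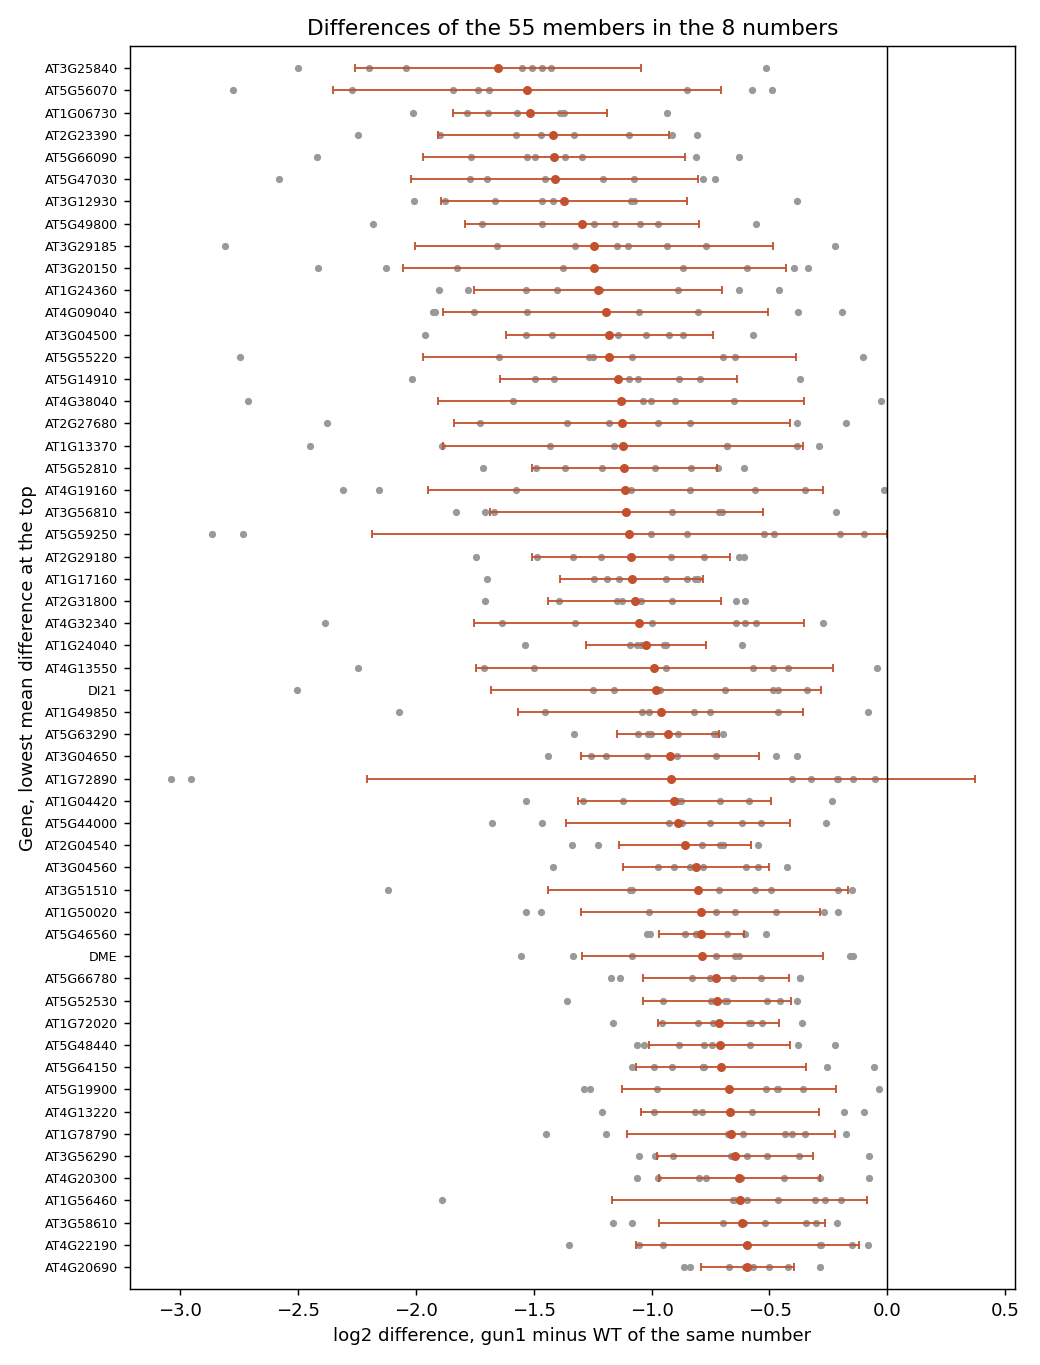
Log2 difference gun1 minus WT (horizontal axis) of the 55 members (vertical axis, lowest mean difference at the top). Grey points are the 8 numbers, red points and bars the mean ± SD over them. Every grey point lies left of 0, and means run from -1.65 for AT3G25840 to -0.59 for AT4G20690.

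Most members were dim on the scale of the array, though not beside other named probes. Mean normalized intensity, on a scale whose top is 100 in every deposited sample, ran from 0.0494 to 1.32 in gun1 and from 0.135 to 2.75 in WT, and 51 of 55 members averaged under 1 in WT. Most named probes tested were under 1 too, since the WT mean of AT5G63290, at 0.849, was already at their percentile 91.0. The median member was at 0.166 in gun1 and 0.330 in WT, beside a median of 0.177 over the named probes tested. In WT level the members had a median percentile of 73.7 among these probes, and the rule favours a WT level well above the floor. In 13 members at least 1 gun1 sample lay at the floor, and in 0 members did a WT sample. The rule fixes this 0, since gun1 had to lie below WT in every number and no value lies under the floor. The floor makes the difference of these 13 depend on where it is set. Some members with no sample at the floor moved too when it was raised to the 20th percentile, AT1G24360 from -1.23 to -0.93. In 15 members every gun1 sample lay below every WT sample, beside 3.33% of all probes tested, and in the other 40 the genotypes overlapped. Here too the rule used the contrast.

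**Figure D2:**
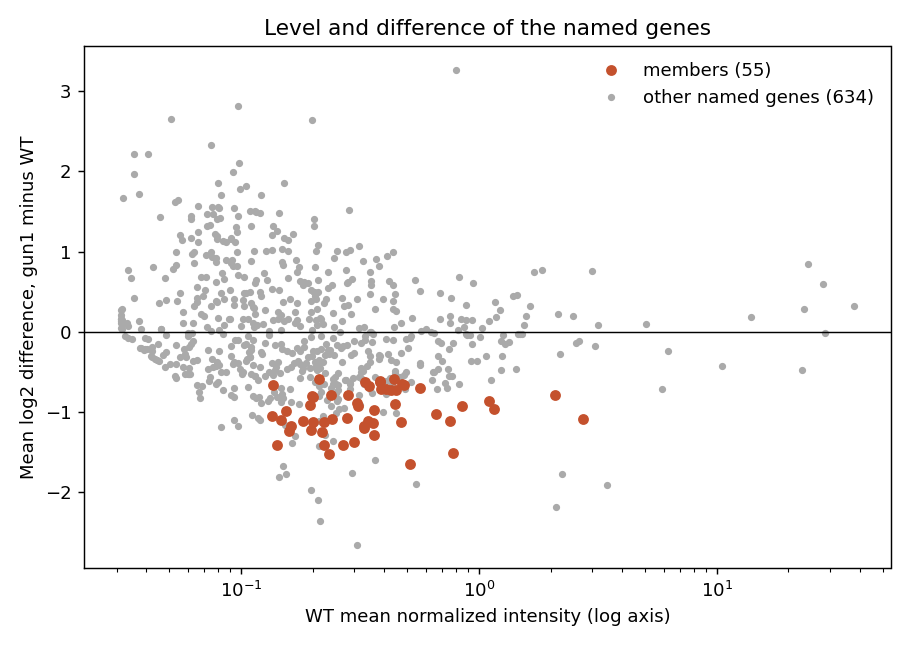
Mean log2 difference gun1 minus WT (vertical axis) against the WT mean normalized intensity (horizontal, log axis) for the named probes tested, with the 55 members in red and other named genes in grey. The members form a band between -1.65 and -0.59 that starts at a WT level of 0.135, so the dimmest genes hold none.

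The differences depended on how the arrays were scaled. The deposited sample medians were higher in gun1, at 0.216 to 0.259, than in WT, at 0.130 to 0.157, and quantile normalization removes that offset. Without any scaling the median difference of the members was -0.39 while that of all probes was 0.41, and 15 members were called lower, beside 6.02% of all probes, and 11 were lower in all 8 numbers. In the deposited values, 6 members had every gun1 sample below every WT sample: AT3G25840, AT1G06730, AT1G17160, AT5G63290, AT2G04540 and AT5G46560. The share over all probes in the deposited values is not given here, so nothing is read from this count. All 6 were among the 10 members with a WT mean of 0.5 or more, a split chosen after the values were seen. At the other extreme the deposited gun1 median was above the WT median in 8 members, namely AT4G19160, AT4G13550, AT1G72890, AT3G51510, DME, AT1G78790, AT1G56460 and AT4G22190. With each array scaled to a common median, the log2 difference was more than 1.5 times the quantile-normalized one in 9 members, AT1G17160, AT1G49850, AT5G63290, AT2G04540 and AT5G46560 among them, and the 55 differences ran from -1.96 to -0.43.

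**Figure D3:**
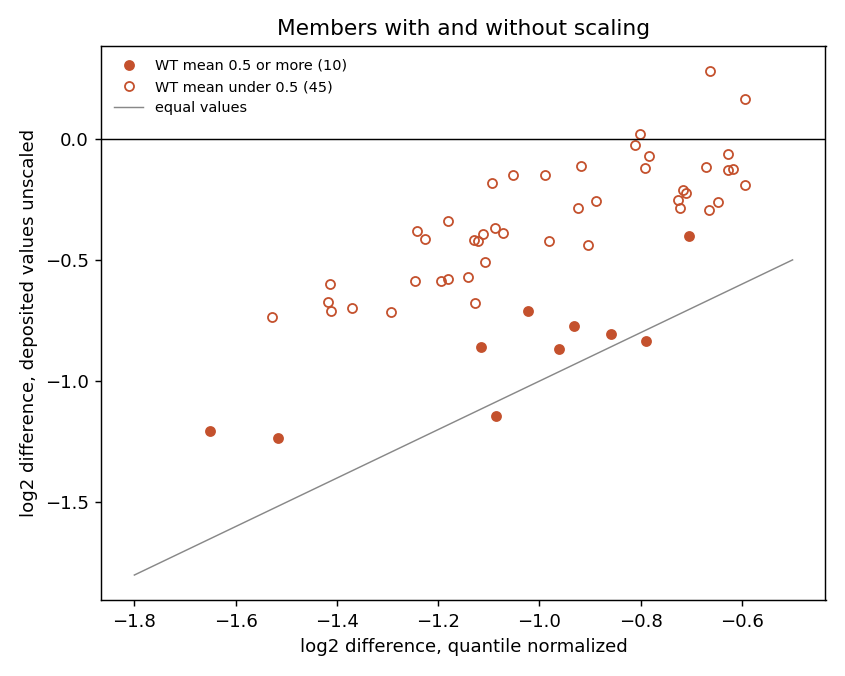
Log2 difference gun1 minus WT of the 55 members from deposited values without scaling (vertical axis) against the quantile-normalized difference (horizontal axis), with filled points for the 10 members of WT mean 0.5 or more, open points for the other 45, and a line of equal values. Only 2 points, the filled ones of AT1G17160 and AT5G46560, lie below the line, and 3 open points lie above 0.

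Enzymes of metabolism formed the largest group with a known role, 16 genes. All 16 were called lower, beside 15.2% of all probes tested, and in 7 the genotypes did not overlap, beside 3.33%. The rule used this contrast, so nothing is read from these counts, here or in the groups that follow. Levels below are the lowest, the median and the highest of the 8 samples of a genotype. Overlap refers to normalized values unless deposited values are named. AT1G17160, a pfkB-type carbohydrate kinase that acts as a ribokinase in the plastid, was the brightest member. Its normalized intensity was 0.859, 1.31 and 1.68 in gun1, against 2.43, 2.77 and 3.03 in WT, so the genotypes were well separated. The deposited values of AT1G17160 were 0.888, 1.23 and 1.74 in gun1 and 2.64, 2.83 and 3.08 in WT. The log2 difference was -1.08 ± 0.30 (SD over 8 numbers), with -1.14 without scaling and -1.87 when each array was scaled to a common median. A second carbohydrate kinase of the pfkB family, AT1G06730, had 0.168, 0.283 and 0.424 in gun1 against 0.678, 0.757 and 0.949 in WT. Its difference of -1.52 ± 0.33 was the third lowest of all members, and its genotypes did not overlap either.

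**Figure D4:**
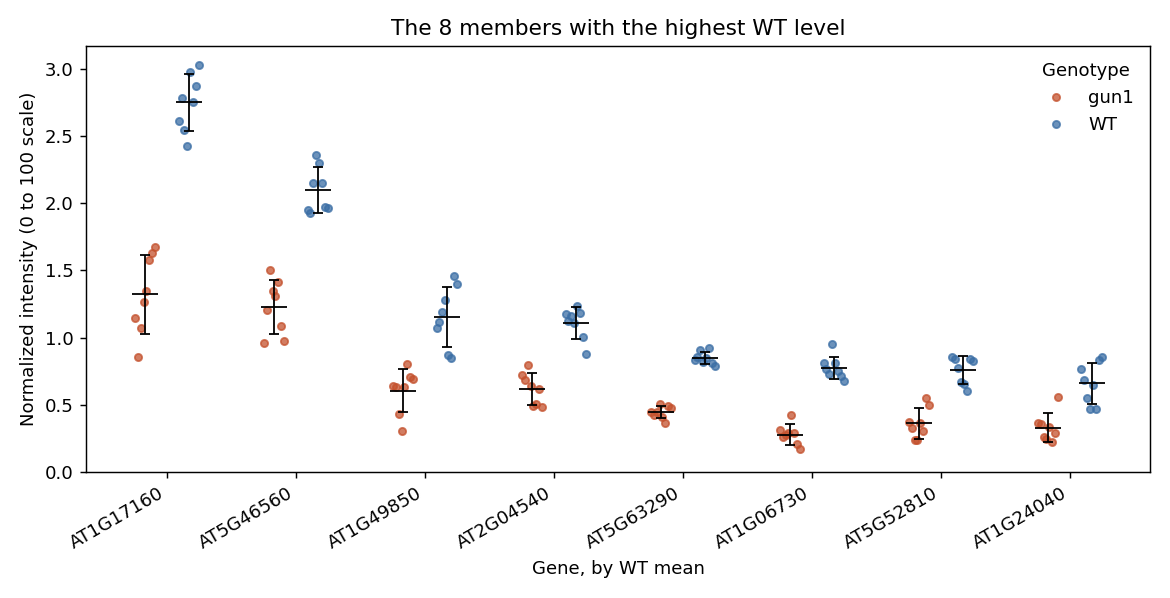
Normalized intensity (vertical axis) of the 8 members with the highest WT mean in every sample, gun1 left and WT right for each gene, with lines for the mean ± SD of 8 samples. Gun1 lies below WT without overlap in 7 genes, and AT1G24040 is the one where the highest gun1 sample, at 0.561, exceeds the lowest WT sample, at 0.466.

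AT5G63290, a radical SAM protein of the coproporphyrinogen III oxidase family, to which enzymes of tetrapyrrole synthesis belong, varied least across the numbers. It had 0.367, 0.449 and 0.506 in gun1 against 0.791, 0.840 and 0.922 in WT, with a difference of -0.93 ± 0.22. Averaged over the genotypes, its log2 level varied by 0.15 across the 8 numbers, the smallest range of any member.

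Fatty acid synthesis was represented by 2 members. AT2G04540 encodes the beta-ketoacyl-ACP synthase of mitochondria, the condensing enzyme that lengthens the acyl chain. It had 0.483, 0.630 and 0.793 in gun1 against 0.875, 1.14 and 1.24 in WT, a difference of -0.86 ± 0.28 with no overlap. AT1G24360 encodes a 3-oxoacyl-ACP reductase, the enzyme of the following step, in the plastid. It was far dimmer, with 0.0476, 0.0854 and 0.129 in gun1 against 0.138, 0.195 and 0.302 in WT. Its genotypes did not overlap after normalization but did in the deposited values, and its difference was -1.23 ± 0.53, or -0.42 without scaling.

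Amino acid metabolism was likewise represented by 2 members. AT5G52810 encodes a reductase of the pathway to pipecolic acid, a lysine-derived signal of plant immunity. Its intensity was 0.235, 0.347 and 0.553 in gun1 against 0.601, 0.799 and 0.856 in WT, and the difference of -1.12 ± 0.39 came without overlap. AT3G58610 encodes ketol-acid reductoisomerase, an enzyme of branched-chain amino acid synthesis in the plastid. Levels of 0.184, 0.248 and 0.316 in gun1 met 0.304, 0.405 and 0.446 in WT, so the top gun1 sample just passed the lowest WT sample. At -0.62 ± 0.35 it was among the smallest differences of the set.

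AT5G47030, a subunit of the F1 part of the mitochondrial ATP synthase, had 0.0313, 0.0952 and 0.178 in gun1, where 2 samples lay at the floor, against 0.101, 0.232 and 0.305 in WT. Its difference of -1.41 ± 0.61 became -0.97 with the floor at the 20th percentile and -1.68 with it at the 1st. AT1G24040, of the GNAT family of acetyltransferases, had 0.226, 0.312 and 0.561 in gun1 against 0.466, 0.666 and 0.859 in WT. Number 8 was the highest gun1 sample of this gene by a wide margin. The WT sample of that number was high too, at 0.859, and the gene's mean difference of -1.02 had an SD of 0.26 over numbers, one of the smaller spreads.

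AT5G49800, of the polyketide cyclase and lipid transport superfamily, had 0.0723, 0.147 and 0.276 in gun1 against 0.253, 0.356 and 0.496 in WT, with a difference of -1.29 ± 0.50 and a slight overlap. The remaining metabolic members were the aldo-keto reductase family genes AT2G27680 (log2 difference -1.13) and AT1G04420 (-0.90), the FAD-dependent oxidoreductase family genes AT3G04650 (-0.92) and AT5G48440 (-0.71), AT4G13550, a lipase (-0.99), and AT5G44000, of the glutathione S-transferase family (-0.89). Of these 6, AT1G04420 alone had genotypes that did not overlap, with a highest gun1 sample of 0.3205 and a lowest WT sample of 0.3212.

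Plastid assembly and translation factors made up 3 members, all called lower, beside 15.2% of all probes tested. AT3G12930 is a plastid protein related to Iojap, of a family that in bacteria keeps the ribosomal subunits apart. It had 0.0843, 0.107 and 0.181 in gun1 against 0.235, 0.295 and 0.380 in WT, with no overlap and a difference of -1.37 ± 0.52. AT3G29185, an assembly factor for the chloroplast ATP synthase, had 0.0313, 0.0911 and 0.214 in gun1 against 0.175, 0.223 and 0.250 in WT. Its WT samples were close together while its gun1 samples spread from the floor into the WT range, so the difference of -1.25 came with an SD of 0.76. AT5G55220, of the trigger factor family of chaperones, had 0.0313, 0.0777 and 0.121 in gun1, with 2 samples at the floor, against 0.0886, 0.153 and 0.291 in WT. Its difference of -1.18 ± 0.79 ranged between -0.10 and -2.75 over the numbers.

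RNA-binding and RNA-modifying proteins gave another 3, all called lower, beside 15.2% of all probes tested. The RRM-type RNA-binding proteins AT4G09040 and AT3G04500 had nearly the same mean difference, -1.19 ± 0.69 and -1.18 ± 0.44. AT4G09040 had 0.0861, 0.138 and 0.327 in gun1 against 0.230, 0.334 and 0.381 in WT, and the genotypes overlapped through the top gun1 sample. For AT3G04500 the values were 0.0942, 0.147 and 0.221 in gun1 against 0.280, 0.327 and 0.420 in WT, with no overlap. AT5G64150, of an RNA methyltransferase family, had 0.214, 0.359 and 0.484 in gun1 against 0.410, 0.501 and 0.834 in WT, and a smaller difference of -0.71 ± 0.36.

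DNA and chromatin genes were 4, of which 2 were called lower, DME and AT1G56460, beside 15.2% of all probes tested. In each of the 4 the genotypes overlapped. DME (DEMETER) is a DNA glycosylase that removes methylated cytosine and so activates genes in the endosperm. It had 0.0716, 0.142 and 0.217 in gun1 against 0.184, 0.237 and 0.312 in WT, a difference of -0.78 ± 0.51, and -0.07 without scaling. AT1G56460, of the PAPA-1-like HIT zinc finger proteins, had 0.0861, 0.233 and 0.324 in gun1 against 0.246, 0.317 and 0.443 in WT. Its call was lost in 13 of the alternatives tried, those that leave out a number included, the most of any member.

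AT1G13370, of the histone superfamily, was not called. Its values were 0.0313, 0.0870 and 0.236 in gun1 against 0.0843, 0.190 and 0.378 in WT, and its log2 level averaged over genotypes varied by 2.54 across the numbers, the widest range of the set. AT1G78790, which RefSeq lists as MHF2, a histone-fold partner of the FANCM helicase in DNA repair and meiosis, was not called either. It had 0.0383, 0.0902 and 0.123 in gun1 against 0.0587, 0.139 and 0.197 in WT. Its mean difference of -0.66 turned to 0.28 without scaling.

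Signalling genes were 3. AT3G25840, a PRP4-type protein kinase associated with pre-mRNA splicing, had the lowest mean difference of all members, -1.65 ± 0.61. It had 0.0942, 0.174 and 0.309 in gun1 against 0.441, 0.521 and 0.585 in WT, so the genotypes did not overlap, and they did not in the deposited values either. AT2G31800, of the integrin-linked protein kinase family, had 0.0829, 0.122 and 0.222 in gun1 against 0.174, 0.269 and 0.362 in WT, with a difference of -1.07 ± 0.37 and some overlap. AT1G72890, a TIR-NBS protein of the disease resistance class, was not called. Its values of 0.0313, 0.132 and 0.192 in gun1 against 0.0989, 0.192 and 0.285 in WT gave -0.92 with an SD of 1.29, the widest spread over numbers in the set, from -0.05 to -3.04.

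Transport was represented by AT5G14910, with a heavy-metal-associated domain, and AT5G59250, a sugar transporter-like protein of the major facilitator superfamily. AT5G14910 had 0.0860, 0.171 and 0.246 in gun1 against 0.242, 0.353 and 0.485 in WT, a difference of -1.14 ± 0.50 with hardly any overlap. AT5G59250 had 0.0313, 0.0704 and 0.116 in gun1 against 0.0381, 0.158 and 0.228 in WT. Its difference of -1.09 carried an SD of 1.09, and its call was lost in 12 alternatives.

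The last 3 genes with a known role were single representatives. AT1G49850, a RING finger protein of the class that holds ubiquitin ligases, was the third brightest, with 0.305, 0.636 and 0.801 in gun1 against 0.849, 1.15 and 1.46 in WT and no overlap. Its difference was -0.96 ± 0.61. AT3G20150, a kinesin motor protein, had 0.0313, 0.0581 and 0.161 in gun1, with 2 samples at the floor, against 0.0612, 0.174 and 0.243 in WT, a difference of -1.24 ± 0.81. AT4G38040, of the exostosin family, which includes glycosyltransferases of cell wall polysaccharides, had 0.0313, 0.125 and 0.158 in gun1 against 0.103, 0.239 and 0.317 in WT. Its difference of -1.13 ± 0.78 was -0.03 in the number where it was smallest.

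No role is given here for the other 21 members. All 21 were called lower, beside 15.2% of all probes tested, with a median difference of -0.79. In 4 the genotypes did not overlap, beside 3.33% of all probes: AT2G23390, AT2G29180, AT5G46560 and AT4G20690. AT5G46560, the second brightest member, had 0.960, 1.26 and 1.504 in gun1 against 1.92, 2.06 and 2.36 in WT, and its difference of -0.79 ± 0.18 had the smallest SD over numbers in the set. It was -0.83 without scaling and -1.56 with a common median. AT5G56070 had 0.0313, 0.0773 and 0.126 in gun1 against 0.0911, 0.239 and 0.341 in WT, with a difference of -1.53 ± 0.82.

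AT2G23390 had 0.0730, 0.0911 and 0.181 in gun1 against 0.192, 0.263 and 0.351 in WT, at -1.42 ± 0.49. AT5G66090 was among the dimmest, with 0.0313, 0.0476 and 0.0757 in gun1 against 0.0484, 0.163 and 0.200 in WT, and its difference of -1.41 ± 0.55 became -0.66 with the floor at the 20th percentile. At the other end of the range, AT4G20690 had 0.221, 0.286 and 0.374 in gun1 against 0.393, 0.419 and 0.529 in WT. A difference of only -0.59 ± 0.20 thus came with separate genotypes after normalization, because both groups were tight. In the deposited values the genotypes overlapped, with gun1 up to 0.401 and WT from 0.336, and the difference was -0.19 without scaling. AT4G22190, at -0.59 as well but with an SD of 0.47, had 0.0892, 0.123 and 0.216 in gun1 against 0.131, 0.205 and 0.289 in WT, which overlapped widely.

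DI21, listed by RefSeq as drought-induced 21, had 0.0731, 0.183 and 0.274 in gun1 against 0.260, 0.384 and 0.424 in WT, a difference of -0.98 ± 0.70. Between -1.11 and -1.05 lay AT4G19160, AT3G56810, AT2G29180 and AT4G32340. AT3G04560, AT3G51510 and AT1G50020 were between -0.81 and -0.79. The remaining 8, AT5G66780, AT5G52530, AT1G72020, AT5G19900, AT4G13220, AT3G56290, AT4G20300 and the already described AT4G22190, ran from -0.73 to -0.59.

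The size of the difference was similar in the 8 numbers. The rule asked for a negative difference in each number and a mean within a range, so this is partly built in and nothing is read from it. The median over members lay between -0.77, in number 6, and -1.001, in number 3, with an SD of 0.07 over numbers. Within single genes it varied more, with a median SD over numbers of 0.49. No number held most of the extremes: the largest difference of a member fell in number 3 for 10 members, the most of any number, and in number 7 for 4, the fewest. The median over members was -0.94 in the numbers 1 to 4 and -0.96 in the numbers 5 to 8.

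Across the 8 numbers the level averaged over both genotypes of a number varied by a median of 0.98 on the log2 scale per member, from 0.15 for AT5G63290 to 2.54 for AT1G13370, beside a median of 1.14 over all probes tested. In 29 of 55 members this range was larger than the mean difference between the genotypes. The median member stood 0.20 above its own mean in number 5 and was at -0.14 and -0.16 in the numbers 7 and 8, beside -0.03 and -0.04 for all probes tested. The numbers 7 and 8 held the lowest pair of levels in 15 of 55 members, beside 402 of the 3419 probes tested (11.8%). They held the highest pair in 6 members (10.9%), beside 9.48% of all probes. These numbers were singled out after the values were seen, and the members share the same arrays, so nothing is read from the counts. The labels do not say what a number stands for.

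**Figure D5:**
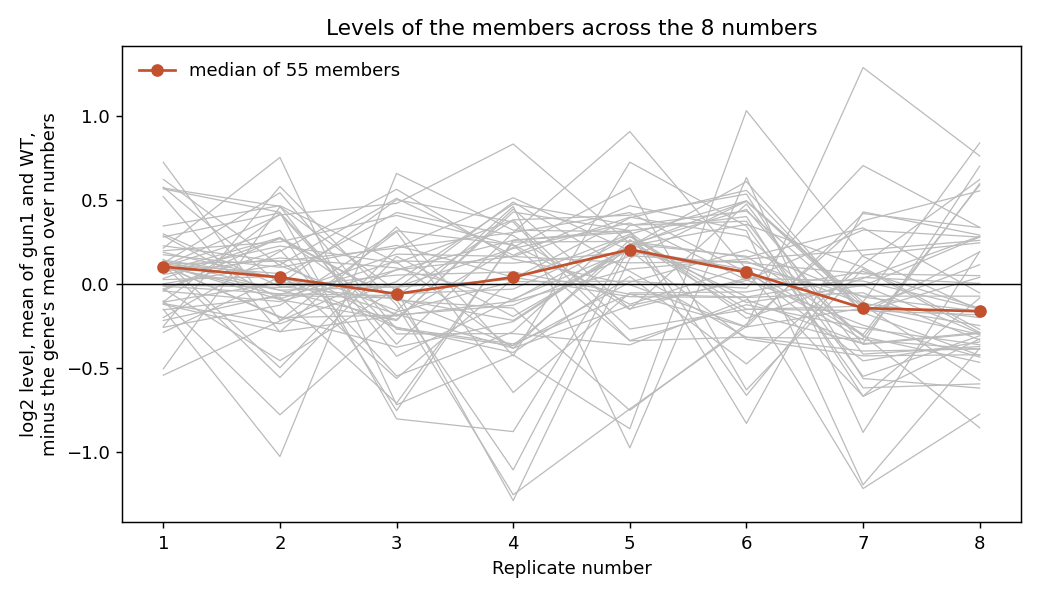
Log2 level averaged over gun1 and WT of a number, minus each gene's mean over the numbers (vertical axis), in the 8 numbers (horizontal axis), with a grey line per member and the median of the 55 in red. The median is highest in number 5, at 0.20, and lowest in number 8, at -0.16, while single genes move by up to 2.54 in all.

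Deviations of the same number from the group means were shared between the genotypes. Across the 55 members their correlation between gun1 and WT was 0.159 to 0.560 in the 8 numbers, with a mean of 0.328, beside a mean of 0.239 across all probes tested. The members are not independent points, since they were read from the same arrays, and a rule that asks for gun1 below WT in every number favours genes whose genotypes move together, so nothing is read from the higher mean. Log2 levels were more variable in gun1 than in WT in 46 of 55 members, with a median SD of 0.47 in gun1 and 0.34 in WT, beside 54.9% of all probes tested. The gun1 levels are the lower ones by the rule, so the level of signal moves with this comparison, and its part was not tested.

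The members were spread over the genome. Chromosome 5 held 17 of them among 142 named probes tested there, chromosome 1 held 12 of 172, chromosome 3 held 11 of 129, chromosome 4 held 10 of 120 and chromosome 2 held 5 of 124. No pair of members was adjacent in the RefSeq gene order of assembly TAIR10.1. The closest were AT3G04500 and AT3G04560, 9 genes apart, and AT3G04560 and AT3G04650, 11 apart. No member gene had a second probe listing it alone. Another 2 probes tested list a member gene among 3 and 4 genes, with log2 differences of -0.70 and -0.56, and these cannot be assigned to 1 gene.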

How the data were processed

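The authors deposited 1 table of linear intensities for 3439 probes in 16 samples; every sample runs from 0 to 100, and how background and scale were set is not given in the sources used here. Samples were grouped by title. Intensities were quantile normalized with limma 3.58.1 (R 4.3.3), deposited zeros and values under the 5th percentile of the rest were set to that floor, and log2 was taken. Then gun1 minus WT was fitted over 3419 probes with lmFit and eBayes, with Benjamini-Hochberg adjustment at 0.05. Left out were 20 constant probes. A ± is an SD over 8 numbers, and a ratio is 2 to the power of the mean log2 difference. The number of arrays limits the precision.

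Names came from the platform table, which lists 1 gene for 692 probes, several for 870 and none for 1877, updated through RefSeq (TAIR10.1). Roles are general knowledge of each locus. Members, gene lists and tests were chosen with earlier results of these data known. Every member is named, and values are given for the 12 lowest differences, the 8 highest WT levels, the 3 nearest each end of the range and up to 6 of each role class, with a few more added after their values were seen. Word lists searched in the RefSeq names, such as kinase or ribosomal, held 0 members. The symbols and synonyms searched are locus or clone codes for most members, so this says nothing of their roles. Promoter motifs were not searched.

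Deviations of the same number correlated between genotypes over all probes tested in each of the 8 numbers, with r from 0.143 to 0.421. Deviations of different numbers were not compared, so this does not show that a number pairs its samples. The labels state no pairing. Figures were drawn with matplotlib 3.10.9.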

Additional observations from a re-analysis of the deposited data

Results flagged for a closer look

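When the gap of the extreme sample was set against the range of the 8 samples of a genotype, 1 of 110 groups (55 members, both genotypes) stood apart by Dixon's criterion, or 0.909%, where chance gives about 1 in 20. It was AT1G24040 in gun1 replicate 8, at a normalized intensity of 0.561 against a median of 0.287 and a highest value of 0.365 in the other 7 gun1 samples. No explanation was tested.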

How the results depend on the processing

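The members were held fixed throughout. Without scaling, 15 members were called lower, beside 6.02% of all probes, 11 were lower in all 8 numbers and the median difference was -0.39. In that setting 3 differences turned positive, at 0.0207 for AT3G51510, 0.28 for AT1G78790 and 0.17 for AT4G22190. With a common median the median difference was -1.10, with 51 members called, beside 29.8% of all probes called lower, and 45 lower in all numbers, and with the floor at the 20th percentile it was -0.79. Averaging consecutive numbers into 4 samples a genotype left 31 members called, beside 7.58% of all probes called lower. In either direction it left 592 probes, from 1088. A random block for consecutive numbers left 45 members, beside 9.77% of all probes called lower, and 733 probes in either direction. With the replicate number as a block, 54 members were called, beside 18.8% of all probes called lower, and 1293 probes in either direction. Leaving out each number in turn, in both genotypes, gave 48 to 50 members called, beside 12.4% to 14.3% of all probes called lower. It gave 895 to 1014 probes called in either direction, a median of -1.02 to -0.95 and 55 members lower in all remaining numbers. The rule fixes this last count, because the arrays were not normalized again, so nothing is read from it. Without the numbers 7 and 8, an alternative chosen after seeing the data, 45 members were called, beside 11.6% of all probes called lower. Cyclic loess, the floor at the 1st percentile, leaving out dim probes and an intensity trend kept each of these counts within 1.5 times and the median within its SD over numbers. Where a scaling moved a value, the cause was not tested. Second probes listing a member gene alone could not be compared, since there were 0. Dim signal limits the 13 members with gun1 samples at the floor, and others with samples under the floor at the 20th percentile.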
